A study of Mus musculus with 2 samples.

Results

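The miR-23/27/24 microRNA (miRNA) genes occur in the mouse genome as twin clusters, Mir23a, Mir27a and Mir24-2 on chromosome 8 and Mir23b, Mir27b and Mir24-1 on chromosome 13. The members were taken by gene symbol, a rule that uses no measured level. Of these 6 genes, 5 had a row among the 1973 miRNA genes counted, and Mir24-1 had none of its own. Small RNA was sequenced from the neural tube of newborn mice of strain B6NCrl at postnatal day 0, with 1 library for each of 2 littermates (pup 1 and pup 2), each made from 1 neural tube, in 1 group. No genotype, treatment or second condition was compared, and sex was not collected. The values therefore describe the tissue and the spread between these littermates.

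A miRNA is cut from a hairpin precursor into a 5p and a 3p arm, and 1 of the arms usually guides the silencing of target messenger RNAs through its seed, bases 2 to 8. In both clusters the hairpins lie in the same order and are known to be made from a shared primary transcript. The miR-23, miR-27 and miR-24 arms have different seeds, so a cluster supplies miRNAs of separate target sets, while each chromosome 8 gene has a paralog of near-identical 3p arm on chromosome 13. Both clusters are known from endothelial cells and the growth of blood vessels, and miR-23 also from glia of the nervous system, where miR-23a represses lamin B1.

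The 3p arms are shown first, because their likeness between the clusters decides which reads can be given to 1 gene. In these RefSeq sequences (GRCm38.p6, 5′ to 3′) capitals mark the seed.
miR-23a-3p: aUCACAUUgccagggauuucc
miR-27a-3p: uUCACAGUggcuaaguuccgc
miR-27b-3p: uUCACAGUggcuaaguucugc
miR-24-3p (from Mir24-2 and from Mir24-1): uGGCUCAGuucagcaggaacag
All 6 members had a hairpin in the RefSeq table, and for miR-23b-3p the hairpin was used. The Mir23b hairpin holds the whole miR-23a-3p arm but for U19A, counting from 1 at the 5′ end of the arm, with the hairpin's base last. The miR-27a-3p arm differs from the Mir27b hairpin at the same position, C19U. Each of these arms is 21 bases long, so the first 18 bases are common to the paralogs. With capitals at the base that differs, the stretches are as follows.
Mir23a: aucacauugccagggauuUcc
Mir23b: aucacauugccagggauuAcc
Mir27a: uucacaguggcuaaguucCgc
Mir27b: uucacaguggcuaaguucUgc
The miR-24-3p arm of 22 bases has 0 differences between the Mir24-2 and Mir24-1 hairpins.

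The longest identical stretch of each hairpin pair reached little beyond the 3p arm, and the bases outside the arms were not aligned. The longest stretch shared by the Mir23a and Mir23b hairpins is 20 bases and begins just ahead of the 3p arm, and the same length is shared by Mir27a and Mir27b. Mir24-2 and Mir24-1 share 28 bases, which contain the whole miR-24-3p arm.
Mir24-2 and Mir24-1: cacuggcucaguucagcaggaacaggag
The 5p arms were less alike. Aligned without gaps, the miR-23a-5p arm has 7 differences from its best place in the Mir23b hairpin, miR-27a-5p has 8 from Mir27b, and miR-24-2-5p has 5 from Mir24-1, all of these 5 from base 17 on.
miR-24-2-5p: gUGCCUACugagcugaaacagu
miR-24-1-5p: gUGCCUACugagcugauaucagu
The tables set apart reads that fitted several places in the genome, and the gene counts leave them out. A read with the letters of miR-24-3p fits both miR-24 hairpins, so the counts of the miR-24 genes cannot stand for the amount of miR-24-3p. A miR-23 or miR-27 read that ends before base 19 of the 3p arm likewise fits both paralogs. The arms were not counted apart, and read lengths were not analysed here. In each library reads that fitted several places were 35.7% (pup 1) and 35.4% (pup 2) of all reads, and how many of them were miR-23, miR-27 or miR-24 was not measured.

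The genes lie close together (GENCODE M21, mm10). Mir23a is at chromosome 8, 84208518 to 84208592, Mir27a at 84208672 to 84208758 and Mir24-2 at 84208815 to 84208921, all on the plus strand. Mir23a and Mir27a overlap no other annotated gene, while Mir24-2 has the antisense miRNA gene Mir3074-2 on its opposite strand and its last 2 bases in an exon of the noncoding gene Gm26532. Mir23b is at chromosome 13, 63300484 to 63300557, Mir27b at 63300712 to 63300784 and Mir24-1 at 63301208 to 63301275, also on the plus strand. These are inside the protein-coding gene 2010111I01Rik on the same strand and in an intron of Fancc, a DNA repair gene, on the opposite strand. Mir23b is intronic in 2010111I01Rik. Mir27b and Mir24-1 lie within annotated exons of transcripts of that gene that are not translated into its main protein, among them a class subject to nonsense-mediated decay. The chromosome 8 cluster spans 404 bases and the chromosome 13 cluster 792 bases. The difference is in the spacers, which are 79 and 56 bases on chromosome 8 against 154 and 423 bases on chromosome 13.

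**Figure D1:**
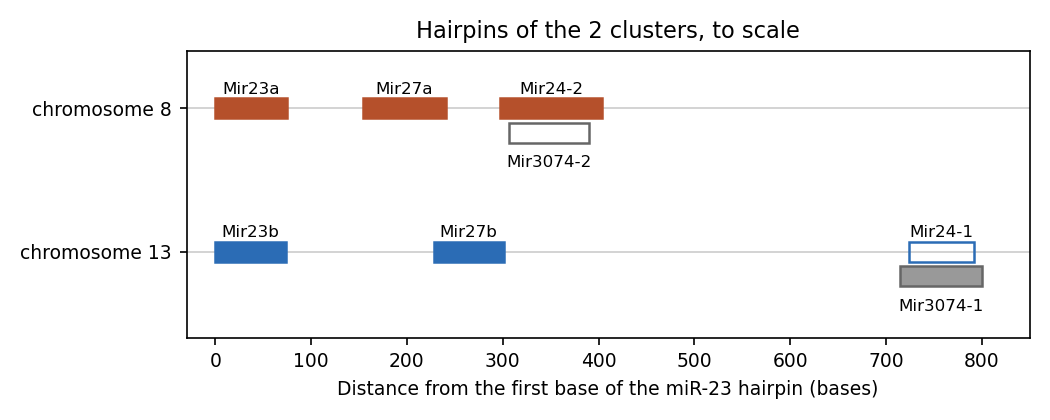
Hairpins of the clusters on chromosome 8 (top) and chromosome 13 (bottom), to scale, by distance in bases from the first base of the miR-23 hairpin; filled bars have a row in the count tables, open bars have none, and grey outlines are antisense Mir3074 genes. Mir24-1 is open, and the antisense gene Mir3074-1 that covers it is filled.

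Own-strand gene counts totalled 3216453 in pup 1 and 3660693 in pup 2, which is 50.6% and 50.8% of all reads. Levels are counts scaled to a total of 1000000 (CPM), so 1 count is 0.311 CPM for pup 1 and 0.273 CPM for pup 2. They are not scaled by length, and the mature arms compared are 21 to 23 bases long. Detection required 10 counts or more in each library, and 352 of 1973 genes (17.8%) passed, among them all 5 members with a row. Neuronal Mir137 (16076 CPM ± 1484, SD, n = 2) and endothelial Mir126a (26923 CPM ± 1294) were both abundant. The other neuronal markers ranged widely, with Mir128-1 at 3126 CPM, Mir153 at 1838 CPM and Mir124a-1 at 9.94 CPM. Mir9-2, at 1.42 CPM, was not detected. The markers Mir1a-1, Mir133a-1 and Mir133a-2 of striated muscle had 0 counts in both pups. The genes of miR-9, miR-124, miR-128, miR-1a and miR-133a are known as copies that give the same mature miRNA. Reads of such a miRNA can fit several places, so neither a low count nor 0 bounds its level. Mir206, also of striated muscle, stood at 85.6 CPM ± 23.0. Levels from whole tissue do not separate fewer cells of a type from less RNA per cell.

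Among members with a row, and in reads placed once, the miR-23 genes had the highest counts of both clusters. Mir23b had 24535 counts (7628 CPM) in pup 1 and 38131 counts (10416 CPM) in pup 2, a mean of 9022 CPM ± 1972 (SD, n = 2). It ranked 18 among all 1973 genes. Mir23a had 15473 counts (4811 CPM) in pup 1 and 25368 counts (6930 CPM) in pup 2, a mean of 5870 CPM ± 1499, and ranked 29. For both genes pup 2 was the higher library, and the lower Mir23b value still lay above the higher Mir23a value.

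The miR-27 genes stood far lower than their miR-23 neighbours. miR-27 is known to act on lipid metabolism and on the differentiation of fat cells. Mir27b had 3670 counts (1141 CPM) in pup 1 and 3745 counts (1023 CPM) in pup 2, a mean of 1082 CPM ± 83.4 (SD, n = 2) and rank 91. Mir27a had 485 counts (151 CPM) in pup 1 and 468 counts (128 CPM) in pup 2, a mean of 139 CPM ± 16.2 and rank 194. Here pup 1 was the higher library for both genes, and the values of Mir27a and Mir27b were far apart in both pups.

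miR-24, known for repressing cell-cycle genes, was represented by Mir24-2, the gene of the chromosome 8 cluster. Mir24-2 had 324 counts (101 CPM) in pup 1 and 387 counts (106 CPM) in pup 2, a mean of 103 CPM ± 3.53 (SD, n = 2) and rank 211. The pups lay closer together for this gene than for the other members, on counts that leave out reads equal to miR-24-3p. All 5 members had 0 counts on the opposite strand in both pups, below the limit of 3 counts.

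**Figure D2:**
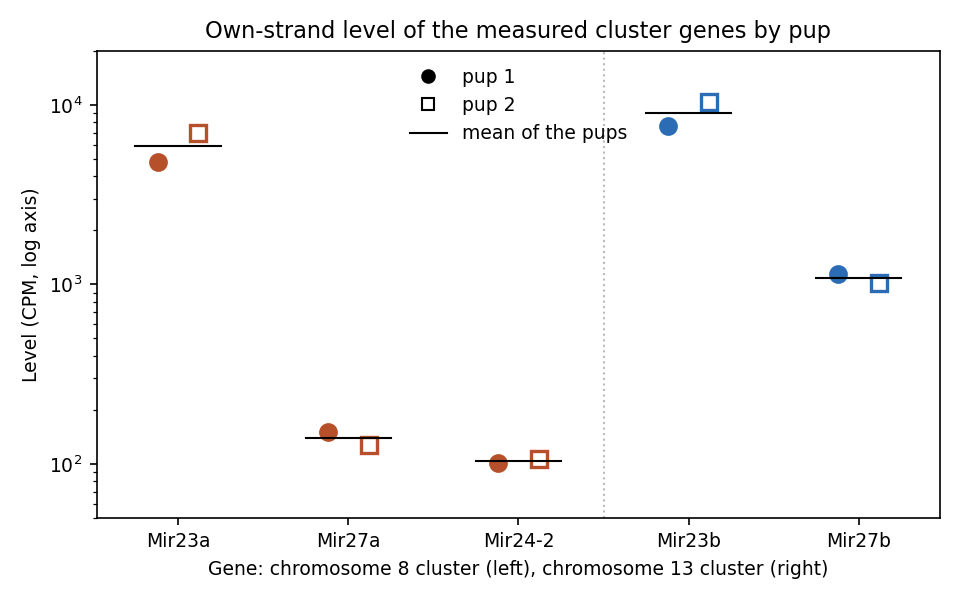
Own-strand level in CPM (log axis) of the 5 measured genes, chromosome 8 cluster in orange and chromosome 13 cluster in blue; filled circles are pup 1, open squares pup 2 and black lines the mean of the pups. Both miR-23 genes lie at 4811 CPM or above in each pup, while Mir27a and Mir24-2 lie between 101 and 151 CPM.

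The order of levels was Mir23b, Mir23a, Mir27b, Mir27a and Mir24-2. Neighbours in this order were compared by the mean difference in log2(CPM + 1), against the limit that 95% of differences would stay within under a normal spread, with SDs pooled over detected genes of like abundance. Of the 4 steps 3, Mir23b to Mir23a, Mir23a to Mir27b and Mir27b to Mir27a, lay beyond their limits. The last did not, since Mir27a and Mir24-2 differed by 0.42 against a limit of 0.46. The limit reflects only how far the pups differ, so an error common to both libraries is not in it.

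Compared member by member, the chromosome 13 gene was the higher one of each pair with rows for both genes. Mir23b exceeded Mir23a by 0.63 ± 0.055 on the log2 scale (SD, n = 2; limit 0.32), a 1.54-fold difference, with 0.66 in pup 1 and 0.59 in pup 2. Mir27b exceeded Mir27a by 2.95 ± 0.056 (limit 0.44), a 7.73-fold difference, with 2.91 in pup 1 and 2.99 in pup 2. Both differences were many times the SD between the pups. How far the placing of reads bears on the size of these steps was not tested.

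Stated as shares, Mir23b held 61.3% (exact 95% binomial interval 60.8 to 61.8%) of the counts of the miR-23 pair in pup 1 and 60.0% (59.7 to 60.4%) in pup 2. Mir27b held 88.3% (87.3 to 89.3%) of the miR-27 pair in pup 1 and 88.9% (87.9 to 89.8%) in pup 2. The intervals cover counting error only and take each read as a separate count, while no molecular identifiers were stated. They did not overlap between the pups for miR-23, where pup 2 minus pup 1 was -1.28 percentage points, and they overlapped for miR-27. Summed over members with a row, the chromosome 13 cluster reached 10104 CPM ± 1888 (SD, n = 2) and the chromosome 8 cluster 6113 CPM ± 1486, a ratio of 1.7 in pup 1 and 1.6 in pup 2. These sums lean on miR-23, since Mir23a made up 95% and 96.7% of its cluster's counts and Mir23b 87.0% and 91.1%. They also lack Mir24-1.

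Within a cluster the balance of the neighbours differed between the clusters and between the pups. Mir23a lay 31.9-fold above Mir27a in pup 1 and 54.2-fold in pup 2, whereas Mir23b lay 6.69-fold above Mir27b in pup 1 and 10.2-fold in pup 2. Mir27a therefore held 3.04% (2.78 to 3.32%) of the counts of Mir23a and Mir27a in pup 1 and 1.81% (1.65 to 1.98%) in pup 2. Mir27b held 13% (12.6 to 13.4%) of the counts of Mir23b and Mir27b in pup 1 and 8.94% (8.67 to 9.22%) in pup 2. In both clusters the intervals of the pups did not overlap, and the miR-27 gene took the smaller share in pup 2. Mir24-2 held 2.05% (1.84 to 2.28%) beside Mir23a in pup 1 and 1.5% (1.36 to 1.66%) in pup 2.

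**Figure D3:**
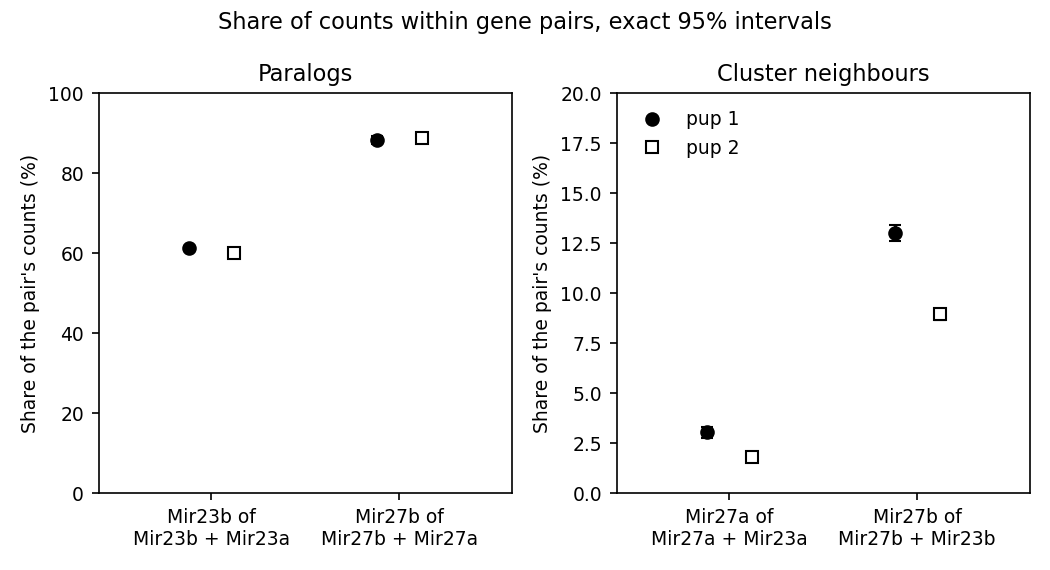
Share of a pair's counts held by the first gene named, in percent, with exact 95% binomial intervals (counting error only, many smaller than the symbol); the left panel has paralogs on different chromosomes and the right panel neighbours in a cluster, with the axis ending at 20%. Mir23b beside Mir23a is at 61.3% and 60.0%, while Mir27b beside Mir23b is at 13% in pup 1 and 8.94% in pup 2.

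The pups were then compared gene by gene over the whole table, with an exact two-sided binomial test and Benjamini-Hochberg adjustment over 413 genes. Of the 5 members 4 were called at an adjusted p under 0.05, beside 40.9% of all tested genes, and 2 each were called higher (25.7% of tested genes) and lower (15.3%) in pup 2. The test compares 2 libraries and holds counting error only, so with counts as large as these small differences are called. The miR-23 genes were higher in pup 2. Mir23a had a log2 ratio of 0.53 (1.44-fold; adjusted p = 2.0e-285) and Mir23b of 0.45 (1.37-fold; adjusted p at the limit of 1e-300 used here). The miR-27 genes were lower, Mir27b with a log2 ratio of -0.16 (adjusted p = 1.2e-05) and Mir27a of -0.24 (adjusted p = 0.029). Mir24-2 was not called, with a log2 ratio of 0.07 and an adjusted p of 0.68. No member reached a 1.5-fold difference. The median log2 ratio of the 5 members was 0.07, and that of all tested genes 0.04.

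For the miR-23 and miR-27 genes, the direction between the pups was shared by paralogs and not by cluster neighbours. Each miR-23 or miR-27 gene of chromosome 8 and its chromosome 13 paralog lay on the same side, and the miR-23 and miR-27 genes of a cluster lay on opposite sides. Mir24-2 (0.07, not called) lay on the side of its neighbour Mir23a. The log2 ratio of Mir23b to Mir23a differed by 0.08 between the pups, and that of Mir27b to Mir27a by 0.08. By contrast the log2 ratio of Mir27a to Mir23a was 0.76 lower in pup 2, and that of Mir27b to Mir23b was 0.61 lower. These differences were not tested against the spread between further animals, since there are 2 pups. The 3p arms of these paralogs differ at base 19 only, and the part of read placing in the shared directions was not tested. Among 352 detected genes, 68 (19.3%) had a log2 ratio at least as large as that of Mir23b in either direction. Among the 31 genes with a mean of 5000 CPM or more, 3 did. These were Mir23b itself, Mir23a and, in the other direction, Mir196b (-0.69). The size of the Mir23b ratio was thus not rare over all detected genes. For the 31 genes the cut is the ratio of Mir23b itself. They ran up to 180672 CPM and were not matched to Mir23b in level.

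**Figure D4:**
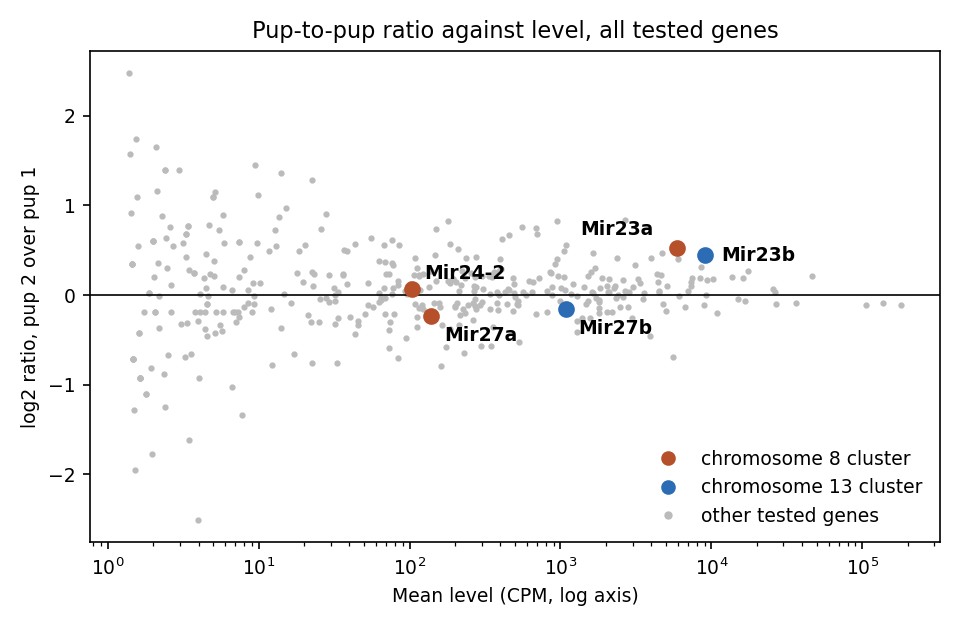
Log2 ratio of pup 2 over pup 1 against mean level in CPM (log axis) for the 413 tested genes, with the chromosome 8 members in orange, the chromosome 13 members in blue and other genes in grey. Mir23a (0.53) and Mir23b (0.45) lie above 0 and Mir27a (-0.24) and Mir27b (-0.16) below it.

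Other miRNA genes of blood vessels and of astroglia showed what moved beside the clusters. In the vascular list, 10 of 12 genes had a row, and 5 were called higher and 1 lower in pup 2, with a median log2 ratio of 0.07. Endothelial Mir126a, the most abundant, was the lower one (log2 ratio -0.10), Mir143 of smooth muscle had 0.04 at 6977 CPM ± 145 (SD, n = 2), and Mir17 of a cluster linked to cell proliferation had 0.10 at 5069 CPM ± 240. In the astroglial list all 7 genes had a row, 3 were called higher and 1 lower, and the median log2 ratio was 0.20. Mir26b had 0.20 at 13709 CPM ± 1346, Mir181a-1 had -0.18 at 2204 CPM ± 197, and Mir29a had 0.12 at 492 CPM ± 29.1. The vascular list summed to 46763 CPM (pup 1) and 46342 CPM (pup 2), the astroglial list to 15983 and 17719 CPM. These called shares are given beside 25.7% higher and 15.3% lower over all tested genes, and nothing particular to either list is read from them.

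Markers of other cell types differed between the pups as well. Beside the 25.7% of all tested genes called higher and 15.3% called lower, 4 of the 5 neuronal markers were called higher in pup 2 and 0 lower (summed level 19577 against 22525 CPM), and both oligodendrocyte markers were called higher (1789 against 2157 CPM). The 4 blood markers summed to 490 CPM in pup 1 and 575 CPM in pup 2, with Mir223 (log2 ratio 0.57) and Mir451a (0.42) called higher. Mir144 (-0.32) and Mir150 (-0.09) were not called. Smooth muscle markers summed to 7084 and 7272 CPM. Mir206 of striated muscle was higher in pup 2 (0.55) and Mir122 of hepatocytes lower (-0.70). The part of any of these in the miR-23 and miR-27 differences was not tested.

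The counts at the missing member can be read only through its antisense gene. Mir3074-1 lies on the minus strand of chromosome 13, 63301199 to 63301283, and covers Mir24-1 entirely. Its opposite-strand counts, the strand of Mir24-1 in GENCODE M21, were 35 in pup 1 (10.9 CPM) and 41 in pup 2 (11.2 CPM). The Mir24-2 counts were 9.26-fold and 9.44-fold higher, a log2 difference of -3.22 ± 0.020 (SD, n = 2) for Mir24-1 over Mir24-2. Mir3074-1 itself had 174 counts (54.1 CPM) and 171 counts (46.7 CPM) on its own strand. The row's strand in the deposited annotation M4 was not checked here. With both strands of this place set against Mir24-2 the log2 difference shrank to -0.75. In either reading the miR-24 pair was the one in which the chromosome 8 gene had the larger count. Reads equal to miR-24-3p are in none of these counts.

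The miR-24 genes are one of many sets with a mature arm of identical letters. The RefSeq table held 33 other sets of 2 genes with an identical arm and a row for both, and 24 of these had at least 10 summed counts in both pups. Of these 24, 16 had a summed level above that of Mir24-2 and 8 a level below it. The measures are unlike, since each set is a sum over 2 genes and Mir24-2 is 1 gene. Reads equal to an identical arm fit several places and are left out, so none of these levels gives the amount of the mature miRNA. The highest were the neuronal Mir128-1 and Mir128-2 (3994 CPM ± 627, SD, n = 2) and Mir125b-1 and Mir125b-2 (2800 CPM ± 89.0). The lowest were Mir29b-1 and Mir29b-2 (8.01 CPM ± 2.97) and Mir19b-1 and Mir19b-2 (7.19 CPM ± 1.81).

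In the RefSeq table the seeds of miR-23a-3p and miR-27-3p, UCACAUU and UCACAGU, occurred in no mature miRNA of another gene. It does not list miR-23b-3p, although the Mir23b hairpin holds the miR-23a-3p seed, so the search can miss arms. The miR-24-3p seed GGCUCAG occurred in 4, from Mir6413, Mir6410, Mir6369 and Mir5124b, each with 0 counts in both pups.

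The gene nearest to each member in its levels in both pups was found by the distance of log2(CPM + 1) over the 2 libraries. Mirlet7d was nearest to Mir23a (distance 0.11; 5981 CPM ± 1159, SD, n = 2), and Mir322 to Mir23b (0.15; 8465 CPM ± 1318). Both were called higher in pup 2, with log2 ratios of 0.40 and 0.32. A ratio near that of the member is built into this choice. Mir3071 was nearest to Mir27b (0.16; 1075 CPM ± 32.6), Mir32 to Mir27a (0.14; 145 CPM ± 5.83) and Mir212 to Mir24-2 (0.070; 100 CPM ± 5.86). None of these last 3 was called, with log2 ratios of 0.06, -0.08 and 0.12.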

How the data were processed

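The deposited values of each library are raw read counts for every miRNA gene, in 3 columns: either strand, own strand (used here) and opposite strand. Build mm10 and annotation GENCODE M4 are named per the labels. Which aligner and counter the authors used is not given in the sources. Classes that name no gene stayed out of totals: 10.8% and 11.0% of reads were unmapped, 35.7% and 35.4% fitted several places, and 1.89% and 1.69% lay outside miRNA genes. Symbols came from GENCODE M21 by Ensembl identifier (1894 of 1973 genes), sequences from RefSeq (GRCm38.p6).

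The pups were compared by a two-sided exact binomial test of each gene's counts against the library totals, for the 413 genes whose counts summed to 10 or more. P-values were adjusted over all of these by Benjamini-Hochberg (threshold 0.05). For log2 ratios 0.5 was added to the counts. The scripts were tested on simulated data. Pooled SDs came from 4 classes of abundance. The p-values hold counting error between these 2 libraries only and do not measure the spread between animals. The pups are littermates.

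The members, lists and tests were chosen with earlier results of these data known. Named genes were the 6 members, the nearest gene to each with at least 100 counts in both pups, and markers. Further ones were the 3 highest genes of the vascular and astroglial lists and the highest and lowest sets with identical arms. Also named were antisense Mir3074 genes, other genes overlapping the members, sharers of the miR-24-3p seed and, for its ratio between the pups, Mir196b. Of 3 planned paralog pairs 2 could be compared as designed. Alternatives included scaling by edgeR's TMM (version 4.0.16, in R 4.3.3) or by DESeq2 (1.42.0), counts of either strand, other totals, count minimums and pseudocounts, and 1 pup alone. Tests used scipy 1.17.1, with numpy 2.4.6 and pandas 2.3.3 under Python 3.11.15, and matplotlib 3.10.9 drew the plots.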

Additional observations from a re-analysis of the deposited data

Results flagged for a closer look

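Counts on the opposite strand of Mir3074-1, outside the own-strand counts that give the gene levels, were 35 in pup 1 and 41 in pup 2, over the limit of 3 counts that 0 allows. In GENCODE M21 this is the strand of Mir24-1.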

How the results depend on the processing

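The paralog ratios, the shares within paralog pairs and the direction and call of each member's pup-to-pup ratio kept their side under every alternative run for them, apart from the 1.5-fold rule below; with TMM and DESeq2 scaling, which moved all log2 ratios by the same amount, the 5 ratios ran from -0.28 (Mir27a) to 0.49 (Mir23a). The count of called members was 4 under each other setting, but 0 where a 1.5-fold difference was also required, by construction. Over all genes that rule left 32 of 169 calls. Without the most abundant gene in the total, the chromosome 13 cluster stood at 12320 CPM, and scaled to 1000000 reads of all classes, a total chosen after seeing the data, the clusters stood at 3097 (chromosome 8) and 5120 (chromosome 13), all by construction of the total; 9 levels of single members moved likewise. With 2 pups, leaving out 1 cannot move a mean by more than its SD, so that says nothing of stability. The planned ratio of Mir24-1 to Mir24-2 from rows of their own was not run. No paired analysis was possible because there is 1 group. Depth limits Mir27a and Mir24-2 most, with 324 to 485 counts in a pup.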
